A study of Mus musculus with 9 samples.

Results

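Phase II conjugating enzymes attach a polar group to drugs, pollutants, hormones and oxidized lipids, which makes them easier to export. The members described here are all rows of the deposited table whose gene symbol is that of a glutathione transferase (Gsta, Gstk, Gstm, Gsto, Gstp, Gstt and Gstz genes, and the membrane-bound Mgst genes), a UDP-glucuronosyltransferase (Ugt) or a cytosolic sulfotransferase (Sult). That rule found 68 of 56748 genes: 26 glutathione transferases, 21 glucuronosyltransferases and 21 sulfotransferases. Of these, 36 were detected, meaning that 3 or more libraries of the 9 had a normalized count of 10 or above: 25 glutathione transferases, 4 glucuronosyltransferases and 7 sulfotransferases. RNA was sequenced from wild-type (WT) primary mouse airway basal stem cells, taken from the trachea and held in air-liquid interface (ALI) culture, where cells on a membrane are fed from below and meet air above. Libraries came from days 1, 3 and 5, which the submitters assign to basal proliferation, stratification and the specification of luminal cells. Each day had 3 libraries. All groups share the WT genotype and the ALI culture, and strain, age and sex of the mice are not in the labels.

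The enzymes fall into families by fold and partner molecule. Glutathione transferases join glutathione, a cysteine-containing tripeptide, to electrophilic compounds, and several of them also reduce peroxides. Glucuronosyltransferases sit in the endoplasmic reticulum and transfer glucuronic acid from UDP-glucuronate. Sulfotransferases transfer sulfate from the activated donor PAPS. In the airway, luminal secretory cells are known as the main site of such metabolism, and the transcription factors NRF2 and AHR are known inducers of many of these genes.

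Promoters of 7 members are printed: those of Gstp1 with Gstp2 and of Gsta1 with Gsta2, pairs with shared transcript sequence, and those of Gsta3, Mgst1 and Sult1d1, which rose in both steps and hold a match to a motif searched. They are the RefSeq stretches from 250 bases before to 50 bases after the annotated start, in the GRCm38.p6 assembly and 5′ to 3′ on the gene's strand. Capitals mark a match, on either strand, to the core of the antioxidant response element that NRF2 binds, TGACNNNGC, or to the core of the dioxin response element that AHR binds, TNGCGTG. The windows are chr19:4037863-4038162 on the minus strand for Gstp1, chr19:4042172-4042471 on the minus strand for Gstp2, chr9:78230419-78230718 on the plus strand for Gsta1 and chr9:78347096-78347395 on the minus strand for Gsta2. Those of Gsta3, Mgst1 and Sult1d1 are chr1:21240335-21240634 on the plus strand, chr6:138140277-138140576 on the plus strand and chr5:87568957-87569256 on the minus strand.
Gstp1: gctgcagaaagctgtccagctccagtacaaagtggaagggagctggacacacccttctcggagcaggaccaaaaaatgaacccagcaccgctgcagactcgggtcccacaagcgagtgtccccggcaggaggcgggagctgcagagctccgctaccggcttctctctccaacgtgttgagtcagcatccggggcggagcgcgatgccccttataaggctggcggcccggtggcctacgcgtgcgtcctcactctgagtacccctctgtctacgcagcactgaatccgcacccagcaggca
Gstp2: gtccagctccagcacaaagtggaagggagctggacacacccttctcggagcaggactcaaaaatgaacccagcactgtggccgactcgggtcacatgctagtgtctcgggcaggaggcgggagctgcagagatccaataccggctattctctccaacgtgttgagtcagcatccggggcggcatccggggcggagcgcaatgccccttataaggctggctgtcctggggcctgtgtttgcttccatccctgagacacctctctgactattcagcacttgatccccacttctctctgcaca
Gsta1: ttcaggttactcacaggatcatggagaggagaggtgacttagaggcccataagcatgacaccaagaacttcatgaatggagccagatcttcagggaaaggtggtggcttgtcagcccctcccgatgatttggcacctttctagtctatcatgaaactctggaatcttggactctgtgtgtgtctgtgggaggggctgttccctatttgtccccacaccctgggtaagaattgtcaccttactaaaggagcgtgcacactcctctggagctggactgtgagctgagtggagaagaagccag
Gsta2: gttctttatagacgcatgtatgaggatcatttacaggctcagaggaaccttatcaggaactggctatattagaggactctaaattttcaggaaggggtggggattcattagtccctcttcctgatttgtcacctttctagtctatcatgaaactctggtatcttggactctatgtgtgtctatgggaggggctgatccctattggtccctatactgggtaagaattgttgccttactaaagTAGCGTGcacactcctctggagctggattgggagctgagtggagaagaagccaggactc
Gsta3: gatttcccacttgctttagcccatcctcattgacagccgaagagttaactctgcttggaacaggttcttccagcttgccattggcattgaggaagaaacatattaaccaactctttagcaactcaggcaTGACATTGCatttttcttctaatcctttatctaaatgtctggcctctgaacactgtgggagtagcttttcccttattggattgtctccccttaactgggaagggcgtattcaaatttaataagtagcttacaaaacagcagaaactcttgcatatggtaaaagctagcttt
Mgst1: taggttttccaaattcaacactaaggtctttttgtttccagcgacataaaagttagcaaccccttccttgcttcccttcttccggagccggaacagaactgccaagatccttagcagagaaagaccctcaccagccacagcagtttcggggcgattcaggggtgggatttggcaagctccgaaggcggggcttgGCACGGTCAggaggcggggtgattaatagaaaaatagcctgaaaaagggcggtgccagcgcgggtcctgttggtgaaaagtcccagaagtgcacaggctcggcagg
Sult1d1: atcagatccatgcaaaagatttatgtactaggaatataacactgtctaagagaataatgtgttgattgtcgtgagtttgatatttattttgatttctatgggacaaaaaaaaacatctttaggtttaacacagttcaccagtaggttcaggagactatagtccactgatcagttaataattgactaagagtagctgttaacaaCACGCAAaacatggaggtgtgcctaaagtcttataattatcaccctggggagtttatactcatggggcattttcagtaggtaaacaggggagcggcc

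The Gstp1 and Gstp2 windows were identical at 246 of 319 aligned columns (77.1%), and those of Gsta1 and Gsta2 at 238 of 316 (75.3%). The antioxidant core was found in 4 of the 32 detected members with a RefSeq promoter, which were Gsta3, Gstm5, Gstm7 and Mgst1, against 14.0% of 27025 genes. It began 121 bases before the start of Gsta3 and 56 bases before that of Mgst1, which has a further start site without the letters. The dioxin core was found in 2 of the 32, Gsta2 and Sult1d1, against 5.84% of all genes. These matches are descriptions of the letters in the window.

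**Figure D1:**
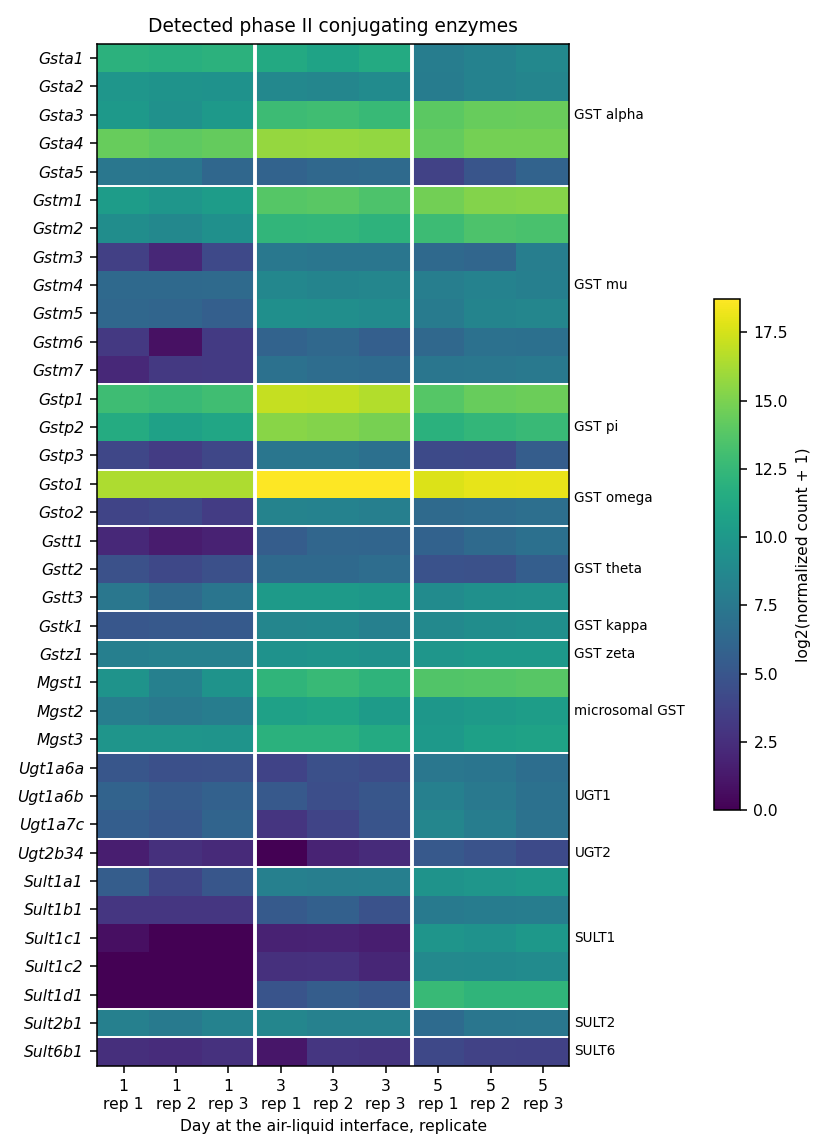
Level of the 36 detected members (rows, grouped by family) in the 9 libraries (columns, by day and replicate), as log2(normalized count + 1) on a colour scale. Most glutathione transferase rows are darker on day 1 than on day 3, Gsta1 and Gsta2 run the other way, and the SULT1 rows Sult1c1, Sult1c2 and Sult1d1 are at or near 0 on day 1 and high on day 5.

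Levels are normalized counts, the deposited log2 values returned to the linear scale, and means carry the SD of the day's 3 libraries. Log2 changes and adjusted p-values are from limma on log2(normalized count + 1) with Benjamini-Hochberg adjustment over all 17338 genes with 10 or more normalized counts in 3 libraries, and a gene is called at an adjusted p under 0.05. Nothing in the labels tells whether the replicates are independent cultures or mice. The p-values therefore reflect the spread among these libraries alone, and that spread may be technical. Since the RNA is from whole cultures, more cells of a type and more RNA per cell cannot be told apart.

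The libraries held 16.4 to 35.1 M reads, and depth was highest on day 1. The summed level of 10 secretory cell markers ranged over 2911 to 8796 on day 1, from 273759 to 411054 on day 3 and from 752301 to 1003750 on day 5. For 8 basal cell markers the ranges were 232355 to 251549, 370351 to 427576 and 210070 to 291622, but on day 3 against day 1, 3 of them rose and 4 fell (median −0.29), and Krt15 alone stood at 302633 ± 29307 on day 3, against 62675 ± 3724 on day 1. The ranges for 8 multiciliated markers were 25.7 to 31.5, 163 to 216 and 9256 to 11921. Of 12 leukocyte markers 5 were tested. The summed ranges of the list were 269 to 306, 2196 to 2294 and 63491 to 81663. On day 3 against day 1, 4 of the 5 rose, which included Cd68 (means 259, 1612 and 163 on days 1, 3 and 5), with a day 3 peak as in many glutathione transferases, Cd74 (4.18, 33.2 and 18.9) and Itgam (3.73, 18.2 and 5.58). On day 5 against day 3, 1 of the 5 rose and 3 fell. The day 5 sum was nearly all Lyz2, which airway epithelium also makes, while Tyrobp had no read and Ptprc never passed 4.07. Csf1r, which missed the filter, was higher on day 5, with means of 0.729, 0.329 and 13.2 on days 1, 3 and 5. A fibroblast sum of 8 genes was 6.10 to 14.9 on day 1, 4.02 to 8.88 on day 3 and 105 to 139 on day 5. Dcn, the only one of them tested, had no read on days 1 and 3 and 112 ± 16.1 on day 5 and was called as higher there. Of 9 endothelial, muscle and cartilage markers 4 were tested. The summed ranges of that list were 356 to 617, 157 to 305 and 185 to 232. On day 5 against day 1, Pecam1 (means 2.02, 16.2 and 8.70 on days 1, 3 and 5) and Acta2 (5.54, 6.12 and 21.6) rose, while Col2a1 and Sox9 fell. Summed Y-linked transcripts stood at 3137 ± 113, 324 ± 24.2 and 461 ± 98.3 on days 1, 3 and 5 and Xist at 1825 ± 246, 5998 ± 507 and 7373 ± 1292. Day 1 therefore differs from both later days in sex-linked transcripts as well as in time, and the part of that difference, or of the cell types, in the results below was not tested.

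Some libraries were lower than their replicates in many members at once. Day 1 replicate 2 was the lowest of its day in 24 of the 36 detected members and in 7 of the 10 secretory markers, with Cyp2f2 at 195, against 1035 and 1090 in replicates 1 and 3. Day 3 replicate 3 was the lowest in 21 members and 8 markers, and day 5 replicate 1 in 26 members and 7 markers. Without day 1 replicate 2, 27 members rose and 4 fell on day 3 against day 1 and 28 rose and 4 fell on day 5 against day 1, in place of 27 and 4 and of 29 and 4 with it. Without day 3 replicate 3, and likewise without day 5 replicate 1, 15 rose and 13 fell on day 5 against day 3, in place of 16 and 16.

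Class sums are given as percent of the normalized counts of a library. Glutathione transferases together took 0.589 ± 0.0403% of a library on day 1, 2.63 ± 0.0564% on day 3 and 1.89 ± 0.195% on day 5. Sulfotransferases held 0.00151 ± 3.3e-04% on day 1, 0.00269 ± 9.8e-05% on day 3 and 0.0394 ± 0.00602% on day 5. Glucuronosyltransferases held 6.3e-04 ± 1.2e-04%, 2.7e-04 ± 7.9e-05% and 0.00309 ± 0.00138% on the same days. Glutathione transferases were thus at their highest on day 3, and the other classes on day 5.

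From day 1 to day 3, 27 of the 36 detected members rose and 4 fell, beside 36.1% up and 37% down among all 17338 genes tested (median log2 change 2.61 for members, 2.72 with the genes lacking day 1 reads set at their bound, and 0.00 for all genes). From day 3 to day 5, 16 rose and 16 fell, beside 34.8% up and 32.4% down of all genes (medians 0.45 and 0.06). Over the whole interval 29 rose and 4 fell, beside 36.7% up and 37.7% down (medians 2.29 and −0.06). All 36 passed the F test for any difference across days, and so did 91.4% of all genes. The 9 members without a library at the filter level on day 1 could be tested only by being high later. Among the 27 members with such a library on every day, 20 rose and 4 fell on day 3 against day 1. On day 5 against day 3, 10 of the 27 rose and 16 fell. Over the whole interval 20 of the 27 rose and 4 fell, while all 9 of the others rose. With the trend in transcript length and GC content removed, all-gene calls for day 5 against day 3 were 4338 up and 7418 down, in place of 6040 and 5624.

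The calls of both steps sort the members by shape. How many of all tested genes had each shape was not counted, so these numbers cannot be set against a share of all genes. Several of the calls were narrow, as given with each gene below. A rise to day 3 followed by a fall was seen in 12: Gsta4, Gstm4, Gstm5, Gsto1, Gsto2, Gstp1, Gstp2, Gstp3, Gstt2, Gstt3, Mgst2 and Mgst3. A rise in both steps was seen in 11: Gsta3, Gstk1, Gstm1, Gstm2, Gstz1, Mgst1, Sult1a1, Sult1b1, Sult1c1, Sult1c2 and Sult1d1. Gstm3, Gstm6, Gstm7 and Gstt1 rose to day 3 and were not called after it. Gsta1 and Gsta2 fell in both steps, Ugt1a6b and Ugt1a7c fell and then rose, and Ugt1a6a, Ugt2b34 and Sult6b1 were called only as higher on day 5 than on day 3. Gsta5 and Sult2b1 were called only as lower in that step.

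**Figure D2:**
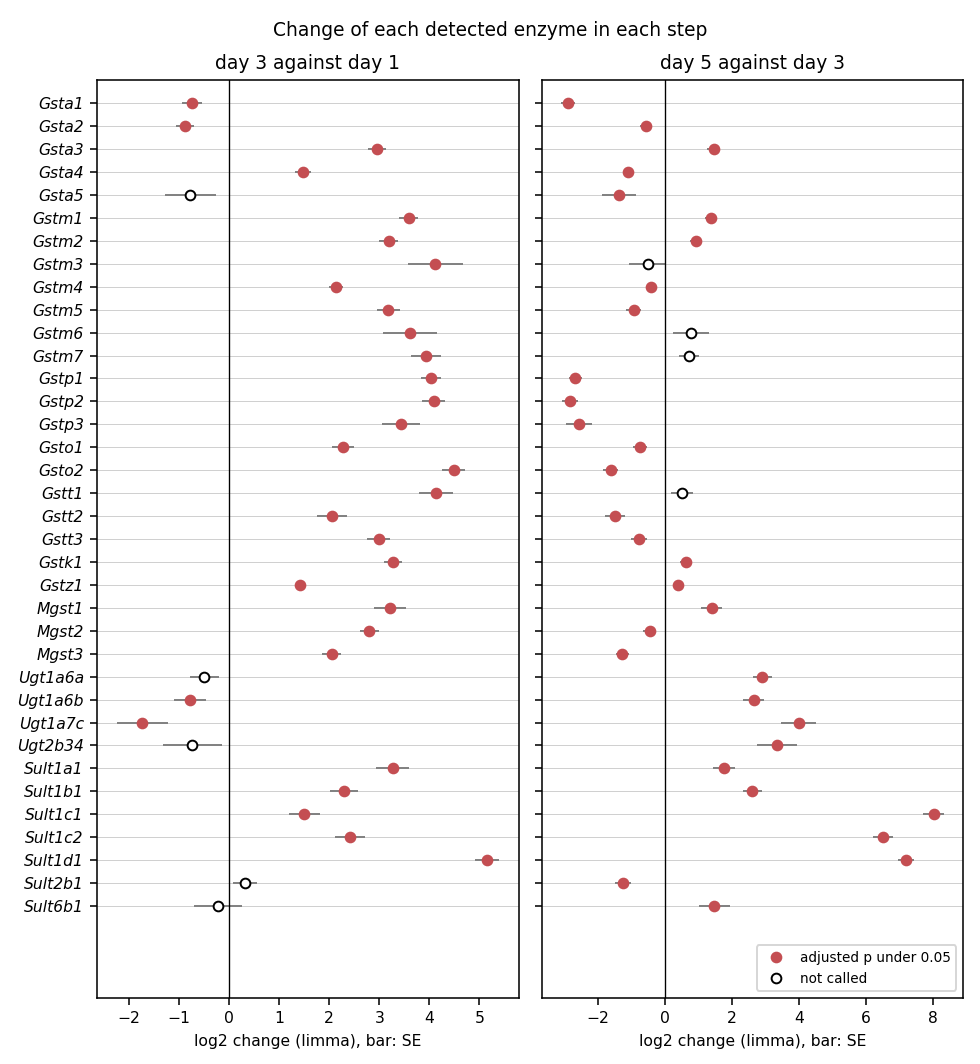
Log2 change of each detected member on day 3 against day 1 (left panel) and on day 5 against day 3 (right panel), with bars for the standard error; filled points passed an adjusted p of 0.05 in limma and open points did not. Most points lie right of 0 in the left panel, while in the right panel the GST pi genes lie between −2.83 and −2.56 and Sult1c1, Sult1c2 and Sult1d1 between 6.50 and 8.02.

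Omega-class enzymes carry a cysteine in the active site and act as thioltransferases and dehydroascorbate reductases. Gsto1 (ENSMUSG00000025068) led the class on every day. It had 86197, 84943 and 87762 normalized counts in the day 1 libraries, 410139, 419963 and 428798 on day 3 and 212909, 263436 and 280727 on day 5. No library of one day overlapped another day, with day 3 highest and day 1 lowest. The log2 change was 2.28 (SE 0.22, adjusted p = 6.3e-06) on day 3 against day 1 and −0.74 (SE 0.22, adjusted p = 0.012) on day 5 against day 3, which left day 5 above day 1 by 1.54. Gsto2, its neighbour in sequence class, had the same shape at a lower level, with means of 12.8 ± 3.40, 303 ± 25.7 and 97.9 ± 12.3 on days 1, 3 and 5 and log2 changes of 4.49 and −1.62.

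Pi-class enzymes detoxify electrophiles and are known in human tissue as abundant in epithelia. Gstp1 (ENSMUSG00000060803) had 7469, 6645 and 7960.0 normalized counts in day 1 libraries, 138162, 129000 and 98338 on day 3 and 13813, 20674 and 23577 on day 5. Every day 3 library exceeded every library of the other days by a wide margin. The rise to day 3 was 4.04 (SE 0.20, adjusted p = 2.4e-07) on the log2 scale and the change on day 5 against day 3 was −2.67 (SE 0.20, adjusted p = 2.4e-06). Gstp2 stood at 2879.9, 1647 and 2154 on day 1, 42956, 38959 and 29863 on day 3 and 3893, 5446 and 6582 on day 5, a peak of the same shape with log2 changes of 4.08 and −2.83. The count of Gstp2 divided by that of Gstp1 was 0.301 ± 0.0738 on day 1, 0.306 ± 0.00473 on day 3 and 0.275 ± 0.00996 on day 5, so the pair moved almost in proportion.

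Near-identical sequence limits how far those 2 genes can be separated. Of all 50-base stretches of the Gstp1 transcript, 62.3% occur in another gene's transcript, and 72.6% of those of Gstp2. The partners are each other and the pseudogene Gstp-ps, which is no member and averaged 960 ± 239, 22151 ± 5964 and 2304 ± 883 on days 1, 3 and 5. Gstp3, which shared no such stretch with another gene, peaked as well, with means of 12.9 ± 3.24, 148 ± 26.2 and 26.7 ± 16.3. Its log2 changes were 3.44 (adjusted p = 1.8e-05) and −2.56 (adjusted p = 2.2e-04), and day 5 against day 1 was not called (0.88 (adjusted p = 0.059); called without day 5 replicate 1, at 1.08 and adjusted p = 0.042, and without day 5 replicate 2, at 1.12 and adjusted p = 0.038).

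**Figure D3:**
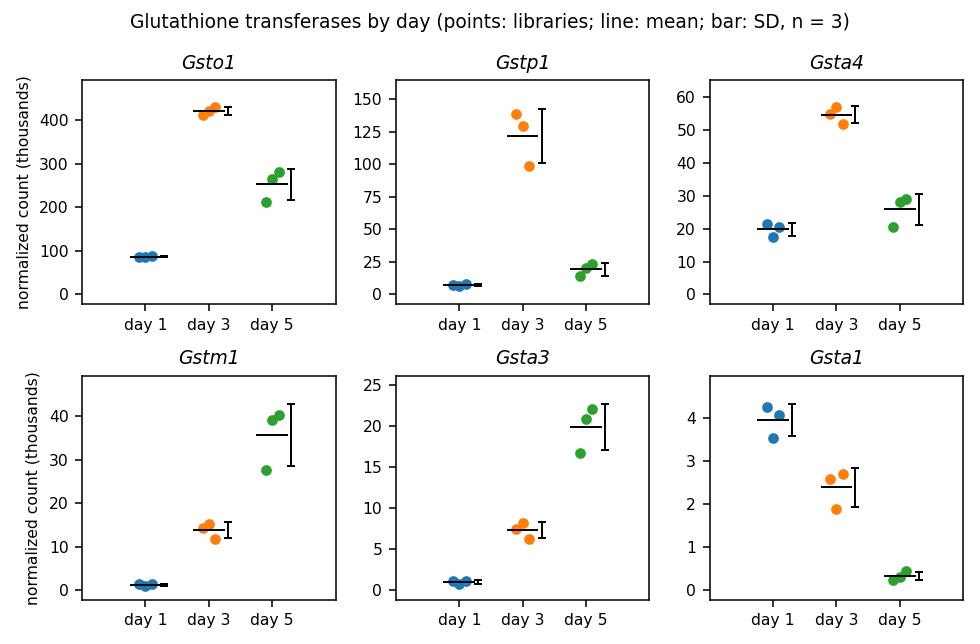
Normalized counts of 6 glutathione transferases in each library by day (points, axis in units of 1000), with the mean (line) and SD (bar) of 3 libraries. Gsto1, Gstp1 and Gsta4 are highest on day 3, Gstm1 and Gsta3 on day 5, and Gsta1 on day 1.

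The alpha class split between members that fell and members that rose. Alpha enzymes are known for reducing lipid hydroperoxides, and mouse Gsta3 for conjugating aflatoxin epoxide. Gsta1 (ENSMUSG00000074183) had 4263, 3540.4 and 4065 normalized counts in day 1 libraries, 2574, 1876 and 2708 on day 3 and 239, 307 and 428 on day 5, and the days did not overlap. It fell in both steps, with log2 changes of −0.74 and −2.90 (adjusted p = 0.0068 and 1.3e-06). Gsta2 fell too, with means of 811 ± 71.1, 444 ± 71.3 and 303 ± 70.5 and changes of −0.87 (adjusted p = 0.0012) and −0.57 (adjusted p = 0.017); without day 3 replicate 3 the later change was not called (−0.44, adjusted p = 0.066). The count ratio of Gsta1 to Gsta2 was 4.89 ± 0.484, 5.37 ± 0.695 and 1.07 ± 0.106 on days 1, 3 and 5. The ratio was lower in every day 5 library; that difference between the genes was not tested. Gsta5 averaged 136 ± 52.8, 75.1 ± 14.1 and 34.0 ± 24.5 and was called on day 5 against day 3 (−1.38 (adjusted p = 0.034)), a call that ended without day 3 replicate 2 (−1.35), day 3 replicate 3 (−1.26), day 5 replicate 1 (−0.79) or day 5 replicate 2 (−1.42).

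These 3 genes also share sequence. Other genes' transcripts hold 89.7% of the 50-base stretches of Gsta1, 64.2% of those of Gsta2 and 48.0% of those of Gsta5. Gm3776, which is no member, holds 82.9% of those of Gsta1. Its count divided by that of Gsta1 was 0.958 ± 0.0308 on day 1, 0.910 ± 0.131 on day 3 and 0.748 ± 0.136 on day 5.

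Gsta3 and Gsta4 share no 50-base stretch with another gene. Gsta3 (ENSMUSG00000025934) had 1069, 688 and 1088 normalized counts in day 1 libraries, 7449, 8112 and 6179 on day 3 and 16673, 20809.9 and 22016 on day 5. It was higher in every library of each later day, by 2.95 and 1.45 on the log2 scale (adjusted p = 7.1e-07 and 7.3e-05). Gsta4 (ENSMUSG00000032348), which conjugates 4-hydroxynonenal from lipid peroxidation, had 21267, 17545 and 20489 on day 1, 54963, 56938 and 51778 on day 3 and 20380.0, 28199.6 and 28939 on day 5. Day 3 stood above both other days, with changes of 1.47 (SE 0.16, adjusted p = 1.4e-05) and −1.09 (SE 0.16, adjusted p = 1.6e-04), the later one not called with quantile normalization (−0.18, adjusted p = 0.26). Days 5 and 1 overlapped, and their difference was not called (0.37 (adjusted p = 0.052)), but it was called without day 5 replicate 1 (0.54, adjusted p = 0.0019) and with quantile normalization (0.52).

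All 7 mu-class genes rose to day 3, and the class was called as higher on day 5 than on day 1 in all 7. Gstm1 (ENSMUSG00000058135), a broad conjugating enzyme of the cytosol, had 1265, 891 and 1304 normalized counts in day 1 libraries, 14310.3, 15246 and 11657 on day 3 and 27581, 39219 and 40420.5 on day 5. Its days did not overlap, and its log2 changes were 3.58 (SE 0.19, adjusted p = 2.8e-07) and 1.37 (SE 0.19, adjusted p = 1.2e-04). Gstm2 followed with means of 555 ± 124, 5017 ± 541 and 9657 ± 1990.5 and changes of 3.19 and 0.93. Gstm4, at 84.0 ± 3.95, 374 ± 27.7 and 283 ± 33.7, and Gstm5, at 64.4 ± 13.8, 585 ± 61.4 and 313 ± 82.8, instead peaked on day 3, with changes of −0.41 and −0.93 in the later step. The later call of Gstm4 ended without day 3 replicate 1 (−0.36), day 3 replicate 3 (−0.39), day 5 replicate 1 (−0.34) or day 5 replicate 3 (−0.39).

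The other 3 members of the class were not called between days 3 and 5. Gstm3 averaged 10.2 ± 6.55, 166 ± 7.88 and 137 ± 104, and its day 5 libraries spread widely, at 84.2, 71.0 and 257. Gstm6 averaged 5.39 ± 3.96, 63.1 ± 13.8 and 109.5 ± 25.5 and Gstm7 6.25 ± 2.48, 105 ± 17.6 and 173 ± 15.2, with later changes of 0.78 (adjusted p = 0.22) and 0.72 (adjusted p = 0.051). Without day 1 replicate 2, whose Gstm6 count was 0.830, the later change of Gstm6 was called (adjusted p = 0.027). That of Gstm7 was called without any 1 of the day 1 libraries (adjusted p = 0.013 to 0.047). With a pseudocount of 8 both were called (adjusted p = 0.039 for Gstm6 and 0.011 for Gstm7). The Gstm7 change was also called with upper-quartile factors (adjusted p = 0.021), with the length and GC correction (adjusted p = 0.036) and by voom on whole reads (adjusted p = 0.0065). Shared 50-base stretches made up 28.8% of Gstm3, 23.1% of Gstm1, 11.5% of Gstm6 and 9.36% of Gstm2, and none of Gstm4, Gstm5 or Gstm7. In the reference, 13.9% of Gstm5 exonic bases lie opposite 4933431E20Rik, and strand use in counting is not given in the sources used here. Opposite-strand overlap also covered 16.5% of Ugt1a6b, 12.2% of Gstz1, 9.34% of Ugt1a7c, 9.14% of Ugt1a6a and 8.13% of Sult2b1. For Sult1a1 and Sult6b1 it was 4.05%. The theta gene Gstt3 shares 26.0% of its 50-base stretches with Gm20441, whose mean was 0 on each day.

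Gstk1, Gstz1 and the 3 detected theta genes rose to day 3, and Gstt4 was not detected. Gstt3 averaged 140.3 ± 44.7, 1081 ± 108 and 633 ± 91.7 on days 1, 3 and 5, with changes of 2.99 (adjusted p = 1.7e-06) and −0.78 (adjusted p = 0.011). Gstt2, at 20.9 ± 4.52, 89.3 ± 11.6 and 32.4 ± 12.5, rose and fell in the same way, and its day 5 level was not called against day 1 (0.57 (adjusted p = 0.11)). Gstt1, the enzyme that activates dihalomethanes, averaged 2.49 ± 0.867, 60.5 ± 14.5 and 87.6 ± 28.7 and was higher on day 3 than on day 1 by 4.14, with no call after that (0.51 (adjusted p = 0.21)). Gstk1, found in mitochondria and peroxisomes, rose in both steps, with means of 35.5 ± 2.83, 356 ± 62.4 and 548 ± 98.6 and a later change of 0.62 (adjusted p = 0.013) that was not called without day 3 replicate 3 (0.47), day 5 replicate 2 (0.57) or day 5 replicate 3 (0.52). Gstz1, the maleylacetoacetate isomerase of tyrosine breakdown, also rose in both, at 286 ± 14.1, 760.5 ± 43.7 and 1003 ± 67.9, with changes of 1.41 (adjusted p = 1.2e-06) and 0.40 (adjusted p = 0.0048).

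The microsomal enzymes are membrane proteins of a separate fold. Mgst1 (ENSMUSG00000008540), which protects endoplasmic reticulum and outer mitochondrial membranes from peroxides, had 765, 284 and 765 normalized counts in day 1 libraries, 4784, 6124 and 4616 on day 3 and 12525, 13534 and 14627 on day 5. The 3 days did not overlap, although day 1 replicate 2 was well under its replicates, as it was in Sult1a1 and Gsta3. Log2 changes were 3.22 (SE 0.32, adjusted p = 7.7e-06) and 1.40 (SE 0.32, adjusted p = 0.0029). Mgst2 and Mgst3, which can make leukotriene C4, peaked on day 3, at 229 ± 35.2, 1614 ± 341 and 1164 ± 212 and 839.8 ± 29.5, 3519.6 ± 663 and 1467 ± 365, with later changes of −0.46 (adjusted p = 0.049) and −1.28 (adjusted p = 1.9e-04). The later call of Mgst2 had a narrow margin. It ended without day 1 replicates 1 or 3, day 3 replicates 1 or 2, or day 5 replicates 1 or 2 (values −0.49 to −0.32). The fall was nearly absent after correction for transcript length and GC content (−0.013, adjusted p = 0.94). Neither upper-quartile factors (−0.32) nor quantile normalization (−0.29) gave a call. A day 3 peak of Mgst2 therefore rests on the normalization used.

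Only members of the UGT1A locus and Ugt2b34 were detected among glucuronosyltransferases. The UGT1A enzymes each have their own opening exon and share the remaining ones, and Ugt1a6 forms are known for glucuronidating phenols. Ugt1a7c (ENSMUSG00000090124) had 47.5, 34.9 and 64.3 normalized counts in day 1 libraries, 6.25, 13.4 and 28.6 on day 3 and 385, 238 and 133 on day 5. Day 3 was lowest and day 5 highest, with no overlap, and day 5 replicate 1 was well above the other day 5 libraries. The log2 changes were −1.73 (SE 0.52, adjusted p = 0.011) and 3.99 (SE 0.52, adjusted p = 8.1e-05), and the earlier one was not called by voom on whole reads (adjusted p = 0.053).

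Ugt1a6b averaged 51.8 ± 11.1, 29.7 ± 7.57 and 197 ± 74.8 on days 1, 3 and 5, and Ugt1a6a 25.7 ± 4.24, 18.3 ± 5.28 and 143 ± 31.5. Both were higher on day 5 than on day 3, by 2.65 and 2.91 on the log2 scale (adjusted p = 4.9e-05 and 1.4e-05). On day 3 against day 1, Ugt1a6a was not called (−0.50 (adjusted p = 0.15)) and Ugt1a6b was called narrowly (−0.79 (adjusted p = 0.044)). The Ugt1a6b call ended without day 1 replicate 1 (−0.66), day 1 replicate 3 (−0.75), day 3 replicate 2 (−0.58), day 3 replicate 3 (−0.85) or day 5 replicate 2 (−0.79). It was also lost by voom on whole reads (adjusted p = 0.11), with upper-quartile factors (adjusted p = 0.082) and with a pseudocount of 8 (adjusted p = 0.051). All 50-base stretches of Ugt1a6a occur in another gene of the locus, as do 80.7% of those of Ugt1a6b and 69.3% of those of Ugt1a7c, so a read in the shared exons cannot be given to 1 of them. Ugt2b34 was near the filter, at 3.55 ± 1.48, 2.21 ± 2.02 and 26.7 ± 9.23, and its rise on day 5 against day 3 was 3.34 (adjusted p = 6.3e-04).

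Sult1d1, Sult1c1 and Sult1c2 of the SULT1 family had the largest log2 changes of all members on day 5, against day 1 and against day 3. Sult1c1 and Sult1c2 reached the filter level only on day 5, and Sult1d1 only on days 3 and 5. A high later level was thus a condition of their being tested. Sult1d1 (ENSMUSG00000029273), which sulfates catecholamines in mice, had no read in the 3 day 1 libraries, 27.5, 45.5 and 33.6 normalized counts at day 3 and 6384, 4776 and 4848 on day 5. Days did not overlap, and the pooled level was at least 50.7-fold higher on day 3, and at least 7825-fold higher on day 5, than the floor of 3 reads over the day 1 libraries. On day 5 against day 3 the log2 change was 7.21 (SE 0.24, adjusted p = 4.4e-08). Its whole transcript was free of shared 50-base stretches.

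Sult1c1 (ENSMUSG00000023943) and Sult1c2, which act on phenols and hydroxylamines, were nearly silent until day 5. Sult1c1 had 1 read in all of day 1, 2.50, 2.68 and 1.97 normalized counts at day 3 and 879, 759 and 994 on day 5. The ratio of pooled levels was 10.1 on day 3 against day 1 (95% counting interval 1.23 to 466) and 3806 on day 5 against day 1 (682 to 150382). Its call on day 3 against day 1 was not made with a pseudocount of 8 (0.34, adjusted p = 0.10). Sult1c2 had no read on day 1, 5.00, 5.36 and 2.96 on day 3 and 441, 472 and 533 on day 5, at least 691-fold higher on day 5 than the day 1 floor. On day 5 against day 3, log2 changes were 8.02 (SE 0.31, adjusted p = 6.3e-08) and 6.50 (SE 0.30, adjusted p = 1.3e-07).

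Sult1a1, the main phenol sulfotransferase, and Sult1b1, which sulfates thyroid hormone, had reads in every library and rose in both steps, although Sult1b1 was under the filter level of 10 in each day 1 library. Sult1a1 had 45.4, 14.1 and 31.5 normalized counts in day 1 libraries, 286, 259.7 and 271 on day 3 and 797, 906 and 1083 on day 5, with log2 changes of 3.27 and 1.76 (adjusted p = 9.3e-06 and 9.5e-04). Sult1b1 averaged 6.70 ± 0.0733, 38.6 ± 14.5 and 229 ± 15.1, with changes of 2.29 and 2.60. Sult2b1, the cholesterol and sterol sulfotransferase of stratified epithelia, ran the other way. It had 279, 210.1 and 309.9 on day 1, 389.7, 303 and 298 on day 3 and 94.1, 163 and 169.8 on day 5, was not called on day 3 against day 1 (0.32 (adjusted p = 0.26)), and was lower on day 5 than on day 3 (−1.25 (SE 0.24, adjusted p = 0.0011)). Sult6b1 stood at the edge of detection, at 4.79 ± 0.654, 4.62 ± 2.95 and 12.8 ± 2.62. Its rise on day 5 against day 3 (1.47 (adjusted p = 0.018)) was not called without day 3 replicate 1 (0.91) or day 5 replicate 1 (1.32), and its rise on day 5 against day 1 (1.25 (adjusted p = 0.033)) was lost without any 1 of the day 1 libraries, day 5 replicate 1 or day 5 replicate 2 (1.10 to 1.33).

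**Figure D4:**
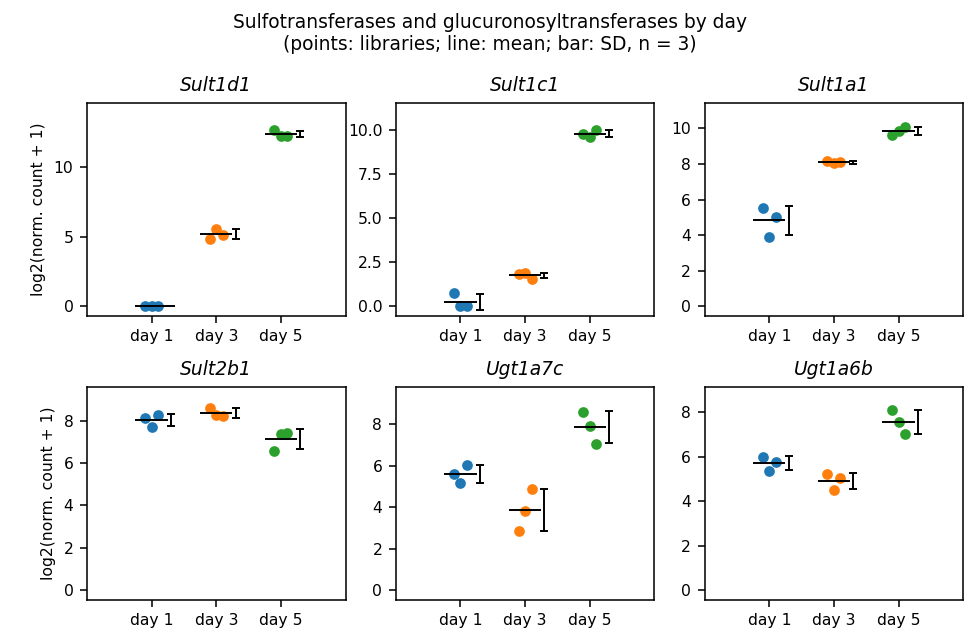
Levels of 4 sulfotransferases and 2 glucuronosyltransferases in each library by day, as log2(normalized count + 1) (points), with the mean (line) and SD (bar) of 3 libraries. Sult1d1 and Sult1c1 start at or near 0 and are highest on day 5, Sult2b1 is lowest on day 5, and the UGT1A genes are lowest on day 3.

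Divided by transcript length, the make-up of each class changed between days. Gsto1 took 63.7 ± 2.33% of the glutathione transferase counts per kb on day 1, 55.3 ± 4.03% on day 3 and 63.2 ± 1.33% on day 5. Gstp1 took 7.80 ± 0.390%, 23.0 ± 2.88% and 6.88 ± 0.766% on those days, so its share was highest on day 3. Gsta4 had 17.6 ± 0.953% on day 1, against 8.69 ± 0.186% on day 3 and 7.78 ± 0.292% on day 5. Gstm1 had 0.776 ± 0.121%, 1.65 ± 0.150% and 8.15 ± 0.422%.

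The sulfotransferase class changed its leading gene. Sult2b1 took 84.5 ± 4.47% of the class per kb on day 1, 42.9 ± 3.27% on day 3 and 2.0 ± 0.684% on day 5. Sult1a1 took 12.5 ± 4.79%, 48.3 ± 2.44% and 17.6 ± 3.24%, and on day 3 it leads per kb while Sult2b1 leads by counts. Sult1d1 took 0%, 3.60 ± 1.09% and 56.7 ± 6.17%, and Sult1c1 0.0769 ± 0.133%, 0.372 ± 0.0531% and 14.5 ± 1.57%. Among glucuronosyltransferases Ugt1a6b had the highest mean share per kb on all days, at 45.5 ± 2.92%, 50.1 ± 15.9% and 37.1 ± 1.29%, while by counts Ugt1a7c had it on day 5. In day 3 replicate 2 Ugt1a6a (22.8 normalized counts) stood above Ugt1a6b (21.4), and this order is uncertain, since most of both transcripts is shared sequence.

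**Figure D5:**
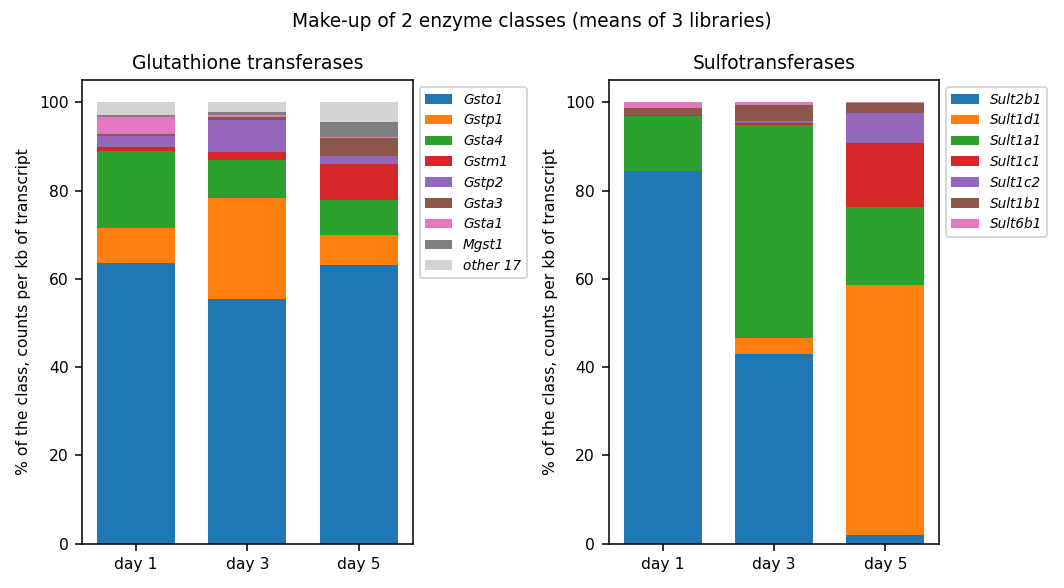
Share of each gene in the counts per kb of transcript of its class, as stacked means of 3 libraries by day, for glutathione transferases (left panel) and sulfotransferases (right panel). Gsto1 holds 55.3 to 63.7% of the left bars, and in the right bars Sult2b1 is at 2.0% on day 5, when Sult1d1 holds 56.7%.

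The other 32 members were not detected. No read was counted in any library for 20 of them: Sult2a1 to Sult2a8, Sult3a1, Sult3a2, Ugt1a8, Ugt1a9, Ugt1a10, Ugt2a1, Ugt2a2, Ugt2b5, Ugt2b37, Ugt2b38, Ugt3a1 and Ugt3a2. The other 12 had 1 to 61 reads over all libraries. Sult4a1, a brain form, had 61 reads and reached 12.7 normalized counts in its highest library, and Ugt1a1, the bilirubin enzyme of liver, had 17 reads and reached 5.81. Sult1e1, the estrogen sulfotransferase, and Sult5a1 had 8 reads each, with highest values of 3.87 and 5.16, Ugt1a5 had 9 and reached 2.68, and Sult6b2 had 7 and reached 2.96. Gstt4, Ugt1a2, Ugt2a3, Ugt2b1, Ugt2b35 and Ugt2b36 stayed at or under 1.97. The 20 genes had no read at this depth, and the other 12 missed the filter. Some of these transcripts consist largely of stretches shared with other genes: 97.0% for Ugt2a1, 94.5% for Ugt2a2 and 58.2% for Ugt1a1. Others, such as Sult2a7 and Sult2a8, share none. How reads that map to several genes were counted is not known, and whether this lowered the counts of such genes was not tested.

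Other genes of the pathway supply the conjugating groups. Of 24 glutathione supply genes, 20 were tested. In them 7 rose and 7 fell on day 3 against day 1, shares near the 36.1% up and 37% down of all genes. On day 5 against day 3, 5 rose and 9 fell (34.8% up and 32.4% down of all genes), and 8 rose and 10 fell over the whole interval (36.7% and 37.7%), with list medians of 0.21, −0.29 and −0.48. The catalytic subunit of glutathione synthesis, Gclc, stood at 6786 ± 1189, 6772 ± 1652 and 5670.3 ± 1137 on days 1, 3 and 5 and was not called in any comparison (adjusted p = 0.96, 0.29 and 0.25), but once the trend in length and GC content was taken out it was lower on day 5, by −0.76 against day 3 and −0.48 against day 1. The modifier subunit Gclm had 2109, 2057 and 2274 on day 1, 1998, 2082 and 2911 on day 3 and 4834, 4474 and 4232 on day 5, and only the later step was called (0.97 (adjusted p = 1.3e-04)); with that trend removed the earlier one was called too, at 1.07. Gsr, which recycles oxidized glutathione, peaked on day 3 like Gsto1, at 5544 ± 384, 9742 ± 349 and 3410.2 ± 228, with changes of 0.81 and −1.52.

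Among the glutathione supply genes with a mean of 100 or more on a day, Anpep, Ggt7 and Cth differed most between days 5 and 1. Ggt5, a gamma-glutamyltransferase under that level, changed more, at 0.428 ± 0.373, 33.5 ± 10.2 and 94.7 ± 23.3 on days 1, 3 and 5. Anpep, an aminopeptidase that frees cysteine at the cell surface, rose in both steps, at 55.3 ± 11.5, 294 ± 57.6 and 1632 ± 45.7. Ggt7, of the gamma-glutamyltransferase family, fell to 16.6 ± 1.94 on day 3, against 27.9 ± 3.96 on day 1, and rose to 225 ± 21.0 on day 5. Its earlier fall was not called by voom on whole reads (adjusted p = 0.055). Cth, which makes cysteine from cystathionine, fell in both steps, with means of 984 ± 133, 319 ± 59.5 and 129.7 ± 8.49 and changes of −1.63 and −1.28.

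Of 13 genes for the supply and use of PAPS, 12 were tested, with 4 up and 4 down on day 3 against day 1, near the shares of all genes (36.1% and 37%). On day 5 against day 3, 8 rose and 3 fell, beside 34.8% and 32.4% of all genes, and over the interval 6 rose and 3 fell, beside 36.7% and 37.7% (medians −0.17, 0.52 and 0.49). Papss1 and Papss2 are the PAPS synthases. Papss1 averaged 1302 ± 75.1, 1628 ± 20.8 and 2385 ± 216 and rose in both steps (0.32 and 0.55), the later call ending after the length and GC correction (0.08). Papss2 had 9.49, 19.1 and 13.9 normalized counts in day 1 libraries, 3.75, 2.68 and 7.89 on day 3 and 94.1, 87.8 and 96.0 on day 5, lower on day 3 than on day 1 (−1.45 (adjusted p = 0.0054)) and higher on day 5 than on day 3 (4.12 (adjusted p = 7.9e-06)). Slc35b2, the Golgi PAPS transporter, averaged 767 ± 72.0, 1957 ± 245 and 1269 ± 177, highest on day 3. Its rise on day 5 against day 1 (0.72 (adjusted p = 5.3e-04)) turned to −0.20 once the trend in length and GC content was taken out (adjusted p = 0.11). Suox, sulfite oxidase, fell to 247 ± 15.0 on day 5, against 720.2 ± 13.6 on day 1. Arsa, arylsulfatase A, rose to 338 ± 11.2 on day 5, against 145 ± 10.7 on day 1. Bpnt2, a Golgi phosphatase that removes spent PAPS, averaged 3169 ± 267, 1129 ± 74.7 and 1549 ± 182, and its rise on day 5 against day 3 (0.45) turned to −0.26 under the same correction.

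All 11 genes of UDP-glucuronate supply were tested. On day 3 against day 1, 3 rose and 6 fell (36.1% up and 37% down of all genes), on day 5 against day 3, 1 rose and 7 fell (34.8% and 32.4% of all genes), and over the interval 3 rose and 6 fell (36.7% and 37.7%), with list medians of −0.24, −0.26 and −0.36. Ugdh, the dehydrogenase that makes UDP-glucuronate, averaged 1602 ± 33.3, 1361 ± 84.9 and 1096 ± 118 and fell in both steps (−0.24 (adjusted p = 0.049) and −0.32 (adjusted p = 0.015)). The earlier call was narrow and ended without any 1 of the day 1 libraries, day 3 replicates 1 or 2, or day 5 replicate 2 (−0.25 to −0.19), and the later one ended without day 3 replicate 3 (−0.27) or day 5 replicate 3 (−0.23). Ugp2, which makes UDP-glucose, averaged 1645 ± 75.2, 1794 ± 82.6 and 1522 ± 41.4, and day 5 against day 1 was not called (−0.11 (adjusted p = 0.22)). Alternatives called that difference in opposite directions. Ugp2 was lower on day 5 after correction for transcript length and GC content (−0.30, adjusted p = 0.017) but higher under quantile normalization (0.21, adjusted p = 0.0495). Hk2, a hexokinase, fell in both steps, at 3489 ± 209, 1673 ± 109 and 1031 ± 154. Uxs1, which turns UDP-glucuronate into UDP-xylose, averaged 1158 ± 93.0, 768 ± 13.4 and 601 ± 40.8, and its fall on day 3 against day 1 (−0.59) turned to 0.22 after correction for the length and GC trend (adjusted p = 0.16). Slc35d2, a nucleotide sugar transporter, rose to 142 ± 15.5 on day 3, against 35.1 ± 4.65 on day 1.

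Exporters of conjugates were tested for 10 of 12 genes. On day 3 against day 1, 3 rose and 6 fell, on day 5 against day 3, 5 rose and 2 fell, and over the interval 3 rose and 5 fell (medians −0.74, 0.29 and −0.50). Of all genes, 36.1%, 34.8% and 36.7% rose and 37%, 32.4% and 37.7% fell in those comparisons. Abcc1, the pump for glutathione conjugates and leukotriene C4, averaged 4402 ± 308, 2293 ± 318 and 2557 ± 358, lower on day 3 than on day 1 (−0.95 (adjusted p = 6.6e-05)) and not called after that (0.16 (adjusted p = 0.30); −0.39 and adjusted p = 0.0021 after that correction). Abcc4 averaged 1841 ± 125, 958 ± 124 and 1609.7 ± 431 and was lowest on day 3. Abcb1b, a P-glycoprotein, fell in both steps, at 1637 ± 317, 434 ± 107 and 146 ± 41.0. Slco2a1, the prostaglandin transporter, had 161, 161 and 163 normalized counts in day 1 libraries, 372, 396 and 379.9 on day 3 and 1139.5, 1145 and 1122 on day 5, and Abcc10 averaged 151 ± 27.5, 314 ± 21.5 and 893 ± 123. Both rose in each step.

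Of 24 regulators 20 were tested, with 4 up and 10 down on day 3 against day 1, 5 up and 4 down on day 5 against day 3 and 6 up and 10 down over the interval (medians −0.34, 0.08 and −0.34), beside 36.1%, 34.8% and 36.7% up and 37%, 32.4% and 37.7% down among all genes. Nfe2l2, which encodes NRF2, had 5925, 5664 and 6287 normalized counts in day 1 libraries, 3976, 4139.8 and 4764 on day 3 and 4537, 4360.2 and 4333 on day 5. It was lower on day 3 than on day 1 (−0.48 (adjusted p = 8.5e-04)) and not called between days 3 and 5 (0.04 (adjusted p = 0.70); −0.38 and adjusted p = 9.5e-04 after the length and GC correction). Its inhibitor Keap1 averaged 1066 ± 54.3, 1733 ± 244 and 1329.6 ± 82.9, highest on day 3 (0.69 (adjusted p = 2.4e-04)), and its rise on day 5 against day 1 (0.32) turned to −0.26 with that trend removed and was not called without day 1 replicate 1 (0.29), day 1 replicate 3 (0.31) or day 5 replicate 2 (0.27). Ahr averaged 1426 ± 208, 1059 ± 90.3 and 1318 ± 283, and its fall on day 3 against day 1 (−0.42 (adjusted p = 0.031)) turned to 0.37 with that trend removed and was not called without day 1 replicate 1 (−0.42), day 1 replicate 3 (−0.32) or day 3 replicate 1 (−0.35). Tiparp, a target and repressor of AHR, fell in both steps, at 1783 ± 225, 614 ± 122 and 426 ± 18.2. Cebpb, a factor of epithelial differentiation, rose in both, at 902 ± 215, 2079 ± 280.3 and 3059 ± 351. Its later call ended without day 3 replicate 3 (0.45), day 5 replicate 2 (0.53) or day 5 replicate 3 (0.50), and neither step was called after the length and GC correction (0.14 and 0.35). Nr3c1, the glucocorticoid receptor, averaged 1441 ± 125, 404 ± 33.6 and 662 ± 175, lowest on day 3.

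Conjugating enzymes and relatives outside the rule were tested for 20 of 24 genes, with 9 up and 4 down on day 3 against day 1, 7 up and 9 down on day 5 against day 3 and 10 up and 9 down over the interval (medians 0.32, −0.24 and 0.08). The shares of all genes were 36.1%, 34.8% and 36.7% up and 37%, 32.4% and 37.7% down. Acsm1, which activates acids for conjugation with glycine, had 34.6, 7.47 and 30.9 normalized counts in day 1 libraries, 792, 991 and 592 on day 3 and 2234, 2689 and 3039 on day 5, with log2 changes of 5.19 and 1.76. Hpgds, a sigma-class glutathione transferase that makes prostaglandin D2, averaged 19.5 ± 5.12, 17.1 ± 7.26 and 174 ± 13.6 and was called only as higher on day 5. Clic4, a chloride channel protein with a glutathione transferase fold, fell in both steps, at 3543 ± 409, 1217 ± 105 and 661 ± 146.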

How the data were processed

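RNA was sequenced from total RNA libraries (VAHTS universal kit, per the labels). The submitters' processing notes name HISAT2 2.1.0, DESeq2 1.36.0 and the build GRCm39. How reads were counted, with which annotation and strand setting, and what was done with reads that map to several genes is not given in the sources used here. Values deposited by the authors are log2 values of reads over a library size factor, not raw counts, and 297330 cells without a read hold no log2 value and were read as 0. Of 57107 lines, 359 repeats were dropped. All values were whole multiples of 1 read within 0.01 of a read.

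Groups and replicate numbers came from the sample titles. limma 3.58.1 (R 4.3.3) was fitted to log2(normalized count + 1) with 1 mean per day over all 9 libraries and a mean-variance trend (6 residual degrees of freedom). This pseudocount understates changes of genes with few reads. Tests were two-sided. In simulated data for day 5 against day 1 on 17338 genes, 82.8% of genes changed by 2-fold and 100% of those changed by 4-fold were recovered. These rates hold for the simulated spread and levels only. They need not apply to members with a wide spread, such as Gstm3 (137 ± 104 on day 5) and Ugt1a7c (252 ± 127 on day 5). The same holds for members with few or no reads on day 1. The test had been planned for log2 data, and +1 was added because of the zeros. Folds against a day without reads use a floor of 3 reads over the day's libraries. Intervals and floors cover counting error only.

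Members, gene lists and markers were chosen with earlier results of these data known, so they carry no independent support. Every member with a mean of 100 or more on a day is named with values, the rest with day means, and undetected members by name. From each gene list, 13 anchor genes in all and the 3 largest called changes on day 5 against day 1, among genes with a mean of 100 or more on a day, were named. Sts of the sulfate list had no match. Gm3776, Gstp-ps and Ggt5 were named after their values were seen.

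The reference, GENCODE M21 on GRCm38, is another build than the authors' and was used by identifier for length, GC content, overlap and shared 50-base stretches. These stretches replaced a planned comparison of proteins. Promoters are from RefSeq. Alternatives were pseudocounts, filters, scalings, voom, a replicate block and leaving out libraries.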

Additional observations from a re-analysis of the deposited data

How the results depend on the processing

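The counts of members called stayed within 1.5 times under every alternative run. With 31, 32, 33 and 36 of 36 called as reported, that margin was too wide to test the counts. Directions moved within it: with upper-quartile factors 17 rose and 12 fell on day 5 against day 3, in place of 16 and 16. Where alternatives that changed a call are named with a gene above, the list need not hold all of them. No called change of a member reversed; over all members, comparisons and alternatives 1849 values kept their side of the threshold, 54 lost a call and 23 gained one. Leaving out each library gave 30 to 31 calls on day 3 against day 1, 28 to 34 on day 5 against day 3, 32 to 34 on day 5 against day 1 and 35 to 36 in the F test. voom on the whole reads called 29, 33, 34 and 36 members, and on day 3 against day 1 it called 6327 genes up and 6363 down of 17338. The replicate block gave 31, 29, 32 and 36 calls. Deviations from the day mean correlated at −0.31 to 0.14 between same-numbered libraries and at −0.15 to 0.36 between the others. With 3 libraries per day, these correlations cannot tell whether the numbers pair cultures or mice.

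Upper-quartile factors moved the all-gene median on day 5 against day 1 to 0.21, against −0.06 as reported, and called 36 members in that comparison. Removing the length and GC trend moved it to −0.24, and to −0.23 on day 5 against day 3 (0.06 as reported). That setting reversed 7 gene-list values: on day 3 against day 1 Uxs1 (0.22) and Ahr (0.37), on day 5 against day 3 Bpnt2 (−0.26), Abcc1 (−0.39) and Nfe2l2 (−0.38), and on day 5 against day 1 Slc35b2 (−0.20) and Keap1 (−0.26). Quantile normalization reversed Ugp2 on day 5 against day 1 (0.21). The cause was not tested.

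Without division by length, Gsto1 took 68.8%, 62.1% and 65.1% of its class on days 1, 3 and 5, Ugt1a6b 39.8% on day 1 and 32.0% on day 5, Sult1a1 39.7% on day 3 and Sult1d1 66.4% on day 5. The shift follows from transcript length. Depth limits members near the filter, such as Ugt2b34 and Sult6b1.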
